A study of Mus musculus with 6 samples.

Results

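H3K27ac, the acetylation of histone H3 at lysine 27 that marks active promoters and enhancers, was examined at genes of the Wnt, Frizzled and beta-catenin pathway in mouse quadriceps. Peaks were chosen by the gene to which the peak caller had annotated them, which is the gene with the nearest transcription start site (TSS). Genes named Wnt, Fzd, Dvl, Dkk or Sfrp with a number were taken, together with Lrp5, Lrp6, Axin1, Axin2, Ctnnb1, Lef1 and the genes whose names begin with Tcf7. This gave 161 of the 46988 peaks in control mice, at 36 genes, and 142 of the 40721 peaks in detrained mice, at 32 genes, which is 303 of 87709 peaks in all. RefSeq lists 49 protein-coding mouse genes that match these names, and 36 of them had a peak in at least 1 list.

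All mice were wild-type male C57BL/6J mice per the study's methods (the labels give C57BL/6 for the H3K27ac libraries, but C57BL/7 and C57BL/8 for the inputs). Detrained mice had 4 weeks of voluntary wheel running from 8 weeks of age and were then kept without exercise for 72 hours before harvest, and control mice were sedentary. Each group comprised 2 H3K27ac libraries, each from the quadriceps of 1 animal, and 1 input library. The H3K27ac libraries held 20805019 to 22400894 tags, and sequencing of the inputs gave 10812470 tags for control and 21298438 for detrained mice. Quadriceps is a bulk tissue, so fewer cells of a type and less H3K27ac per cell cannot be told apart. As a check of the tissue, the TSSs of all 8 myofibre markers (Acta1, Ckm, Mb, Tnnt3, Pvalb, Myh4, Myh1 and Ttn) lay in peaks of both lists, whereas none of the 5 adipocyte markers (Adipoq, Plin1, Cfd, Lep and Retn) had a TSS in a peak of either list. TSSs of all 6 endothelial and 5 of 6 fibro-adipogenic markers also lay in peaks of both lists, so this check does not single out myofibres.

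In the canonical Wnt pathway, a secreted Wnt ligand binds a Frizzled receptor (Fzd genes) together with the co-receptor LRP5 or LRP6. Dishevelled proteins (Dvl genes) relay this to the destruction complex, whose scaffold is Axin and which otherwise marks beta-catenin (Ctnnb1) for degradation. Stabilized beta-catenin enters the nucleus and acts through the DNA-binding TCF/LEF factors (Tcf7, Tcf7l1, Tcf7l2 and Lef1). Dickkopf proteins (Dkk genes) such as DKK1 act on the co-receptors, and secreted Frizzled-related proteins (Sfrp genes) bind the ligands. Dkk and Sfrp genes, Dkk3 included, are grouped below as secreted inhibitors by name alone. In skeletal muscle the pathway is known for its roles in satellite cells, the stem cells of muscle, and Tcf7l2 is known as a marker of connective tissue fibroblasts of muscle.

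Peaks over promoters are shown first through their sequence, with the members that had a peak over the TSS set beside those that had none. The 300-base windows around the TSS (250 bases before it and 50 after, RefSeq, build GRCm38.p6, whose chromosomes share the coordinates of mm10) were found for 34 member genes with 43 promoters. The 21 promoters whose TSS lay in a peak held a median of 34 CpG dinucleotides (4 to 58), the 22 without a peak held a median of 21.5 (5 to 45), and the 21263 promoters of all protein-coding genes in the same table held a median of 13. The windows of the 3 members with the densest TSS peaks among these 34 genes and, for contrast, the window with the fewest CpG among single-promoter members without a TSS peak are given below, 5′ to 3′, with CpG dinucleotides in capitals. The ranges overlapped, and no test was made.
Fzd7 promoter (chr1:59481897-59482196, plus strand): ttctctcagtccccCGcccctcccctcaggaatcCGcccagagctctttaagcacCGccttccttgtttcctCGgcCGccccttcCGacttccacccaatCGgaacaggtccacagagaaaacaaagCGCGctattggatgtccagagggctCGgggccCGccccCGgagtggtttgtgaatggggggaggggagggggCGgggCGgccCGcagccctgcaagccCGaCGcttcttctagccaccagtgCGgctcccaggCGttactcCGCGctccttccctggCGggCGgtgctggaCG
Fzd4 promoter (chr7:89404116-89404415, plus strand): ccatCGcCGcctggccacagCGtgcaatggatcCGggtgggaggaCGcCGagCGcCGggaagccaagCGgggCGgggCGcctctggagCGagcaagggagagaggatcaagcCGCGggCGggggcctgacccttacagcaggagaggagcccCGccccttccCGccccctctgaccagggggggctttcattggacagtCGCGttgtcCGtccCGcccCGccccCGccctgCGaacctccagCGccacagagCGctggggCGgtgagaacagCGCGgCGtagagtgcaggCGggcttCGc
Dvl1 promoter (chr4:155847152-155847451, plus strand): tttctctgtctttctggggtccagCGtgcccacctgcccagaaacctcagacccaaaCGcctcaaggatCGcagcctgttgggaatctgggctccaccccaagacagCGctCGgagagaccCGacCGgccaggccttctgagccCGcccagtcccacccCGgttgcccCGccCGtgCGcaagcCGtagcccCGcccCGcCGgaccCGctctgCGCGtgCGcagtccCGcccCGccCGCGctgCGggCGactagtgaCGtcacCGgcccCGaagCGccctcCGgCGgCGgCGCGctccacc
Wnt8b promoter, no TSS peak (chr19:44493222-44493521, plus strand): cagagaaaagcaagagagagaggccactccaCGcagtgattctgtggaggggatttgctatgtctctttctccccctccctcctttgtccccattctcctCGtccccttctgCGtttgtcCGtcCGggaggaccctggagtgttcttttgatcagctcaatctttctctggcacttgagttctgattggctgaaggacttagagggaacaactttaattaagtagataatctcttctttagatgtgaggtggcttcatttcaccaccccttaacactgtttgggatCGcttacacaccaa

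These windows held 24 CpG for Fzd7, 32 for Fzd4, 35 for Dvl1 and 6 for Wnt8b. Windows of 300 bases at the centres of all peaks were then searched on both strands for CTTTGAT, the core sequence that TCF/LEF factors bind. It was present in 6 of 161 control and 10 of 142 detrained member windows, against 3.79% of all control and 3.90% of all detrained windows. CTTTGTT, its variant, was present in 10 and 8 member windows, against 7.05% and 6.83% of all windows. The centre of a wide peak is not its summit, and a match is not evidence of binding. Of the peaks in which the same CTTTGAT lay in the centre window of both lists, 2 are shown with 60 bases on each side and the match in capitals (GRCm38.p6).
Fzd7 upstream peak (chr1:59410393-59410519, minus strand): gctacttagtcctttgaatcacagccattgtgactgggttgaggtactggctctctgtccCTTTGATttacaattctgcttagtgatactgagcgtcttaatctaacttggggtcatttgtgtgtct
Dkk2 intronic peak (chr3:132168759-132168885, minus strand): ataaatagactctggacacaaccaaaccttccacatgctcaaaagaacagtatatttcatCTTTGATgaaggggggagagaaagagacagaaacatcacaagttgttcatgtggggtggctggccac

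Here and below, density is the number of tags per kb of peak per 10000000 total tags of the library, with 0.5 tags added. The Fzd7 match lay in an intergenic peak at -71654 bp from the TSS, at 33.8 and 47.0 tags per kb in control and 43.6 and 40.1 in detrained mice, and the groups overlapped. The Dkk2 match lay in a weak peak, at 19.7 and 18.4 tags per kb in control and 9.87 and 17.9 in detrained mice, where the detrained libraries were both lower than either control library. The other motifs searched were CAGCTG (an E-box, the site of myogenic factors), in 36 control and 25 detrained member windows, against 18.9% and 19.1% of all windows, TGACTCA (the AP-1 site), in 12 and 9, against 6.56% and 7.18%, and the MEF2 motif, in 6 and 4, against 5.003% and 5.33%. In the 43 member promoters, CTTTGAT was found in 2, CTTTGTT in 4, CAGCTG in 5, TGACTCA in 2 and MEF2 in 0, against 3.22%, 5.01%, 15.6%, 4.66% and 2.74% of all 21263 promoters.

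In both lists 22 of the 49 genes had a TSS inside a peak, against 49.5% of the 21000 protein-coding genes. The other members comprised 3 genes with a TSS peak in control mice alone (Fzd9, Sfrp4 and Wnt2), 1 in detrained mice alone (Dkk2), and 23 with none. By role, TSS peaks were found in control and in detrained mice at 8 and 7 of 10 Frizzled receptors, both co-receptors, all 5 Dvl and Axin genes, Ctnnb1, 2 of 4 TCF/LEF factors (Tcf7l1 and Tcf7l2), 6 and 5 of 19 ligands and 1 of 8 secreted inhibitors in each list. The annotation class of a peak is set by its centre. Thus 9 of 161 control and 8 of 142 detrained member peaks were annotated as promoter peaks (5.59% and 5.63%, against 11.2% and 12.6% of all peaks), while many wide peaks over a TSS were annotated to an intron or exon.

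The densest TSS peaks belonged to receptors and to components that act just behind them. The Lrp6 peak (chr6:134564517-134567966 in control, mm10) reached 114 and 123 tags per kb in control and 117 and 105 in detrained mice. Fzd7, a receptor known from satellite cells, carried a peak 10300 bp (control) and 9896 bp (detrained) long whose centre lay in the 3′ UTR, at 93.7 and 118 tags per kb in control and 123 and 109 in detrained mice. The Fzd4 peak stood at 102 and 115 tags per kb in control and 102 and 95.6 in detrained mice. At Dvl1 the values were 89.7 and 109 in control and 103 and 96.2 in detrained mice. At all 4 of these peaks the groups overlapped, and in each list all 4 were denser than at least 88.5% of all TSS peaks.

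**Figure D1:**
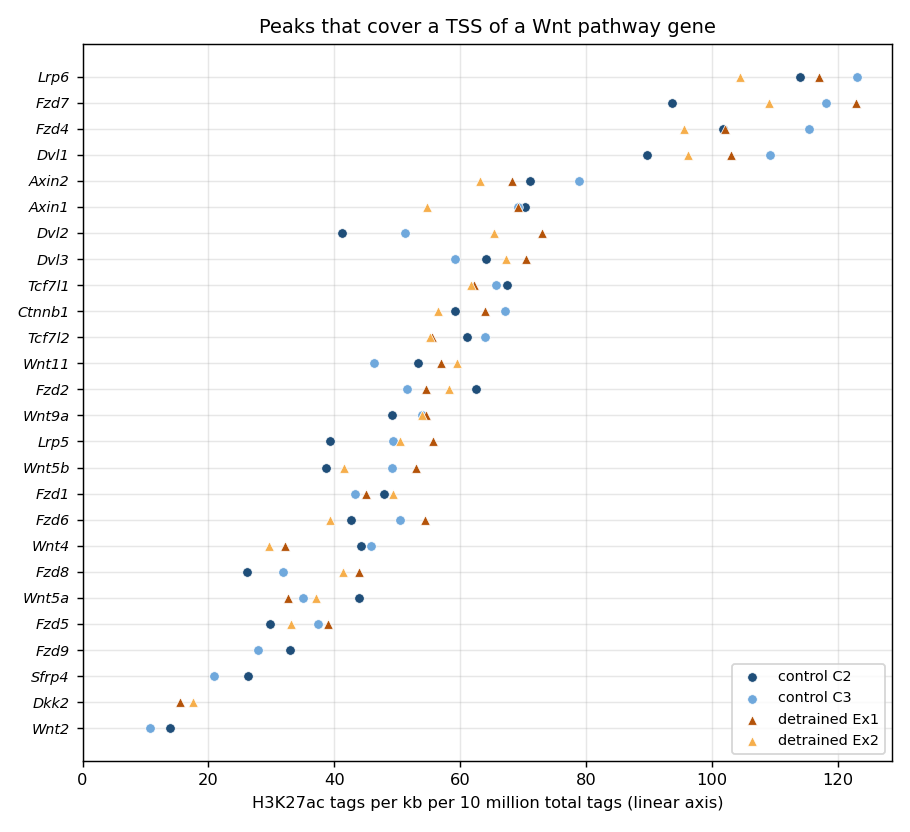
H3K27ac density in tags per kb per 10000000 total tags (linear axis) of the peak that covers the TSS of each member gene, with the peak of more pooled tags where a gene has several. Circles are the 2 control libraries and triangles the 2 detrained libraries, and Lrp6, Fzd7, Fzd4 and Dvl1 lie highest in both groups, with overlapping libraries.

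Of the remaining TSS peaks, 6 of 23 in control and 6 of 20 in detrained mice were denser than the median of all TSS peaks, which was 60.1 tags per kb in control and 58.6 in detrained mice. Axin2, an established transcriptional target of the pathway, stood at 71.2 and 78.8 tags per kb in control and 68.3 and 63.2 in detrained mice, so the detrained libraries lay just below the control libraries. Ctnnb1, which encodes beta-catenin itself, stood at 59.2 and 67.1 in control and 63.9 and 56.5 in detrained mice, and the groups overlapped. Axin1 stood at 70.4 and 69.2 in control and 69.1 and 54.7 in detrained mice. Tcf7l1 stood at 67.5 and 65.7 in control and 62.2 and 61.7 in detrained mice, and the main Tcf7l2 TSS peak at 61.2 and 63.9 in control and 55.5 and 55.2 in detrained mice. At Axin1, Axin2, Tcf7l1 and Tcf7l2 the detrained libraries were both lower than either control library, by less than 1.5-fold. Dvl3 went the other way, at 64.2 and 59.2 tags per kb in control and 70.5 and 67.3 in detrained mice. In tags per peak, without division by length, the log2 ratio of detrained to control was 0.03 at Axin2, 0.05 at Tcf7l2 and -0.20 at Dvl3, each in the other direction, and it stayed negative at Axin1 (-0.20) and Tcf7l1 (-0.09).

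The other receptor promoters were below those of Fzd7 and Fzd4. Fzd2 stood at 62.6 and 51.6 tags per kb in control and 54.6 and 58.3 in detrained mice, Fzd1 at 47.9 and 43.3 and at 44.99 and 49.3, Fzd6 at 42.7 and 50.5 and at 54.4 and 39.3, and Fzd5 at 29.8 and 37.4 and at 39.0 and 33.1, and the groups overlapped at all 4. The Fzd8 TSS lay in a peak of 3662 bp at 26.2 and 31.9 tags per kb in control and in a peak of 1666 bp at 43.9 and 41.3 in detrained mice, but the tags summed over this region, which held 2 detrained peaks, were 95.6 and 116 per 10000000 in control and 86.4 and 84.3 in detrained mice. Fzd9 had a TSS peak in the control list alone (33.0 and 27.9 tags per kb), as did Sfrp4 (26.4 and 20.9).

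Among the ligand promoters, Wnt11, a ligand of the beta-catenin-independent branch, stood at 53.3 and 46.3 tags per kb in control and 56.9 and 59.5 in detrained mice, and all detrained values were higher. Wnt4 stood at 44.3 and 45.8 in control and 32.2 and 29.7 in detrained mice, and all detrained values were lower. Wnt9a stood at 49.2 and 53.9 in control and 54.7 and 54.0 in detrained mice, and the detrained libraries lay just above the control libraries. In tags per peak the log2 ratio was -0.04 at Wnt11 and -0.19 at Wnt9a, in the other direction, and -0.11 at Wnt4. Wnt5b (38.8 and 49.1 against 53.0 and 41.5) and the 5′ Wnt5a peak (43.9 and 35.1 against 32.7 and 37.1) had overlapping libraries. Further start sites lay in weaker control peaks at Wnt5a (21.5 and 16.4) and Tcf7l2 (30.1 and 25.9). A further Wnt5b TSS was covered by a weak peak in detrained mice alone, at 24.7 and 21.7 tags per kb. The weakest TSS peaks of each list were those of Wnt2 in control (14.0 and 10.8) and of Dkk2 in detrained mice (15.6 and 17.5). At Dvl2 the TSS lay in a control peak of 2151 bp annotated to Dvl2, and in a detrained peak of 6362 bp that was annotated to the neighbouring gene Phf23, with 41.3 and 51.2 tags per kb in the former and 73.0 and 65.5 in the latter, so its absence from the detrained member peaks was one of annotation.

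Of the protein-coding members, 13 had no annotated peak in either list. They were the ligands Wnt1, Wnt3, Wnt3a, Wnt6, Wnt7a, Wnt8a and Wnt9b, the receptors Fzd3 and Fzd10, the inhibitors Dkk4, Sfrp2 and Sfrp5, and the factor Tcf7. Dvl2, Sfrp4, Wnt2 and Wnt16 had peaks in the control list alone, and no member had peaks in the detrained list alone. The Wnt16 peaks were 500 bp long and weak, with 9.05 and 5.88 pooled tags per 10000000. A gene without an annotated peak is one below the peak caller's limit or one whose peaks lie nearer to another TSS, so it cannot be called free of H3K27ac.

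Peak numbers differed between member genes, counted here with the peaks over a TSS. Tcf7l2 carried 22 control and 16 detrained peaks, numbers reached by 0.656% of the genes with a peak in control and 1.04% in detrained mice. Wnt11 carried 13 and 13 peaks, Lrp6 11 and 8, and Wnt5b 10 and 10. In the other roles, most peaks were found at Fzd9 (7 and 5) and Fzd8 (5 and 8) among the receptors, at Dkk3 (8 and 5) and Dkk2 (6 and 8) among the inhibitors and at Axin2 (6 and 4) among the Dvl and Axin genes. The median was 3 peaks per member gene with a peak in control and 3.5 in detrained mice, against 2 in both lists over all genes. Introns held 87 control and 66 detrained member peaks and intergenic sequence held 54 and 51. Peaks lay at a median distance of 25842 bp (control) and 27623.5 bp (detrained) from the TSS, against 16272.5 bp and 14979 bp for all peaks.

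The nearest TSS is not always the gene around the peak. The centre of 81 control and 65 detrained member peaks lay within the body of the member gene itself, that of 23 and 22 lay within another protein-coding gene, and that of 57 and 55 lay in none. All 3 Dkk1 peaks of each list lay in introns of Prkg1, from -75100 to -187894 bp from the Dkk1 TSS. The one nearest to Dkk1 was the densest inhibitor peak, at 48.5 and 58.7 tags per kb in control and 45.8 and 45.8 in detrained mice. Several Wnt11 peaks lay in introns of Uvrag, and most upstream Wnt5b peaks lay in introns of Erc1. All 5 Wnt7b peaks of each list were intergenic, although Wnt7b had no peak over its TSS. The densest ligand peaks were also intergenic, namely the Wnt10a peak at 24928 bp from its TSS (79.0 and 76.7 tags per kb in control, 95.1 and 80.4 in detrained mice) and the Wnt7b peak of 2086 bp found in detrained mice at -52932 bp (100.2 and 101.2 tags per kb), which overlapped a control peak of 4088 bp (62.5 and 64.9 tags per kb). Without division by length the direction turned, with a log2 ratio of -0.23 in tags per peak at Wnt10a, and with 255 and 265 tags per 10000000 in control and 209 and 211 in detrained mice at the Wnt7b peak.

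**Figure D2:**
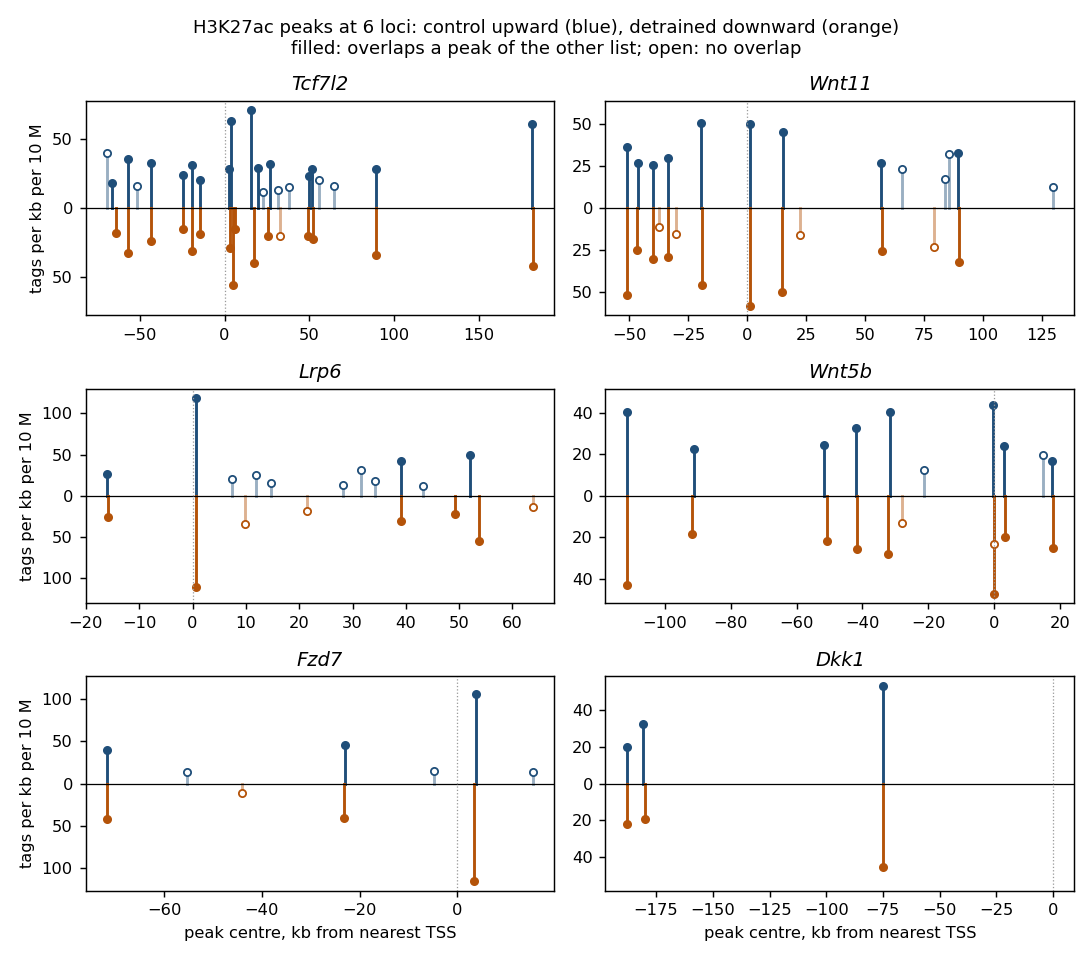
Peaks annotated to Tcf7l2, Wnt11, Lrp6, Wnt5b, Fzd7 and Dkk1, with the distance of the peak centre from the nearest TSS in kb on the horizontal axis and the mean density of the 2 libraries in tags per kb per 10000000 total tags on the vertical axis, control upward and detrained downward. Filled points overlap a peak of the other list and open points do not, and the tallest peak of each locus is filled in both groups.

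Which peaks were listed in both groups followed their strength. Of the control member peaks 108 of 161 shared 1 bp or more with a detrained peak, and 109 of 142 detrained member peaks did so with a control peak, against 72.1% and 82.0% of all peaks. Member peaks without overlap had a median of 17.4 pooled tags per 10000000 in both lists, against 72.3 in control and 68.6 in detrained mice for those with overlap. The strongest control peaks without overlap, by pooled tags, were an intronic Lrp6 peak (28.5 and 23.1 tags per kb), an intronic Dkk2 peak (26.97 and 26.9), Wnt11 peaks in Uvrag (23.3 and 23.0, and 30.7 and 32.8) and a further intronic Lrp6 peak (34.7 and 28.6). In detrained mice they were the Dkk2 TSS peak (15.6 and 17.5), a Fzd5 peak in an intron of Plekhm3 (33.0 and 35.0), Fzd9 peaks at -18751 bp (25.5 and 21.3) and just past its 3′ end (27.2 and 21.4), and an intronic Lrp6 peak (30.4 and 37.5). No value of the other group is given for such a position, because each table holds its own peaks.

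To compare levels between the groups, control and detrained peaks that overlapped with at least 50% of each covered, and with no other such partner, were taken as shared. There were 87 shared member peaks among 26432. Their median density on the log2 scale was 5.08 and 5.28 in control libraries C2 and C3 and 5.03 and 5.07 in detrained libraries Ex1 and Ex2. The median log2 ratio of detrained to control density was -0.07 (quartiles -0.19 and 0.09), against -0.03 (quartiles -0.19 and 0.14) over all shared peaks. This was less than the distance between the 2 control libraries, and the members' median was -0.12 without C2, -0.02 without C3, -0.06 without Ex1 and -0.02 without Ex2. The tables were normalized separately, so no test between the groups was made, and with 2 libraries against 2 an exact permutation test could not give a two-sided p below 0.333.

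The libraries of the groups overlapped at 50 of the 87 shared member peaks, against 51.5% of all shared peaks. The detrained libraries were both lower than either control library at 22, against 27.2% of all shared peaks, and both higher at 15, against 21.3% of all shared peaks. A difference of at least 1.5-fold in density without overlap was found at 0 member peaks in the higher direction, against 1.10% of all shared peaks, and at 2 in the lower direction, against 2.06% of all shared peaks. The members' counts are thus near the background. The direction also depended on the measure, since the log2 ratio of tags per peak was negative at 12 of these 15 peaks that were above and positive at 9 of these 22 that were below.

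**Figure D3:**
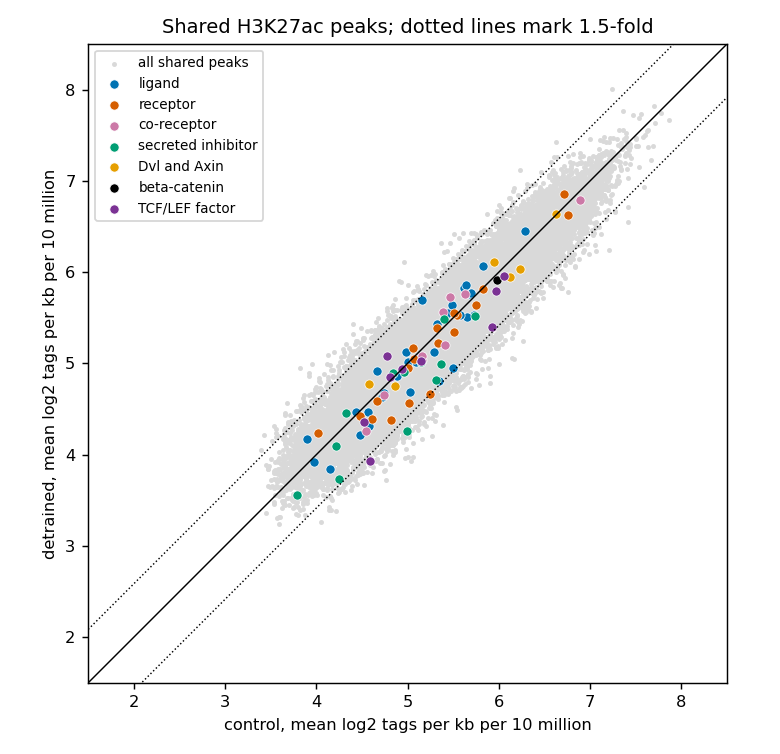
Mean log2 density (tags per kb per 10000000 total tags) of the 26432 shared peaks in control (horizontal) and detrained mice (vertical), with the 87 member peaks coloured by role and dotted lines at 1.5-fold. Of the members, 2 lie below the lower dotted line, one near Dkk1 and one at Tcf7l2.

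Both peaks past 1.5-fold differed in length between the lists. The first lay at -180833 bp from Dkk1, in intron 7 of Prkg1 (chr19:30729137-30731521 in control, mm10), at 25.8 and 39.5 tags per kb in control and 17.6 and 20.9 in detrained mice. Its log2 density ratio was -0.74, but the detrained peak was 3763 bp long and the control peak 2384 bp, and in tags per peak the log2 ratio was -0.08. The other lay in intron 4 of Tcf7l2 (chr19:55870465-55871226 in control), at 22.3 and 25.9 tags per kb in control and 13.8 and 17.0 in detrained mice. Its log2 density ratio was -0.65, but it spanned 761 bp in the control and 1407 bp in the detrained list, and in tags per peak the log2 ratio was 0.24, in the other direction. The pooled tags of these peaks were 342 in control and 312 in detrained mice near Dkk1, and 80 and 93 at Tcf7l2. Both fell short of 1.5-fold without C3, at log2 density ratios of -0.43 near Dkk1 and -0.54 at Tcf7l2, and that of Tcf7l2 also without Ex1, at -0.50.

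The next largest decreases did not reach 1.5-fold with all libraries used. They were an intergenic Fzd8 peak at -444094 bp (35.7 and 40.1 tags per kb in control, 29.9 and 21.4 in detrained mice, log2 ratio -0.58), the Wnt4 promoter peak (-0.54) and an intronic Erc1 peak annotated to Wnt5b (37.7 and 43.6 against 28.4 and 27.5, -0.54). In each, the detrained libraries were both lower than either control library. In tags per peak the log2 ratios were -0.46, -0.11 and -0.24. With 1 library left out, the density ratio of the Fzd8 peak ran from -0.34 (without Ex2) to -0.82 (without Ex1). That of Wnt4 ran from -0.48 (without Ex2) to -0.60 (without Ex1), and that of Wnt5b from -0.43 (without C3) to -0.64 (without C2). Each thus passed 1.5-fold in at least 1 of these settings.

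The largest increase was found at the intergenic Wnt11 peak at -51037 bp from its TSS (chr7:98782312-98785838 in control), at 40.6 and 31.2 tags per kb in control and 49.2 and 54.2 in detrained mice, with a log2 density ratio of 0.54. The control peak spanned 3526 bp and the detrained peak 2541 bp, and in tags per peak the log2 ratio was 0.06. It was followed by an intergenic Tcf7l2 peak at 89442 bp (32.4 and 23.2 against 30.1 and 38.0, log2 ratio 0.30), where the groups overlapped, a Wnt2b peak at -39907 bp (15.9 and 14.0 against 19.3 and 16.7, 0.27), the Lrp5 TSS peak (39.3 and 49.3 against 55.7 and 50.4, 0.27) and a further upstream Wnt11 peak (26.1 and 24.7 against 26.7 and 34.2, 0.25). In tags per peak the ratio of the Lrp5 TSS peak was -0.10, in the other direction. Each of these values moved when 1 library was left out. The lowest log2 density ratios were 0.35 at the first Wnt11 peak and 0.06 at the Tcf7l2 peak without C3. They were 0.16 at Wnt2b without Ex1 (0.17 without C3), 0.10 at Lrp5 without C2, and 0.07 at the further Wnt11 peak without Ex2. The highest were 0.72 at the first Wnt11 peak, past 1.5-fold, and 0.54 at the Tcf7l2 peak, without C2. They were 0.37 at Wnt2b without Ex2, 0.43 at Lrp5 without C3, and 0.43 at the further Wnt11 peak without Ex1.

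Density is tags divided by length, so a negative relation between its ratio and the ratio of lengths is partly built in. Of the 87 shared member peaks 43 were longer and 42 shorter in detrained mice. Across these peaks, which share the same 4 libraries and are not independent, the log2 ratio of density and that of length had a Pearson correlation of -0.60 (Spearman -0.59), and over all 26432 shared peaks it was -0.51 (Spearman -0.53). By tags per peak, without division by length, 0 member peaks were at least 1.5-fold higher without overlap, against 5.51% of all shared peaks, and 5 were lower, against 5.08% of all shared peaks. None of these 5 was among those past 1.5-fold in density. They were peaks of Dkk2 (the peak with the CTTTGAT shown above), Wnt5b, Dkk1 and Tcf7l2, the last with 2, and each of the 5 was shorter in detrained mice.

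**Figure D4:**
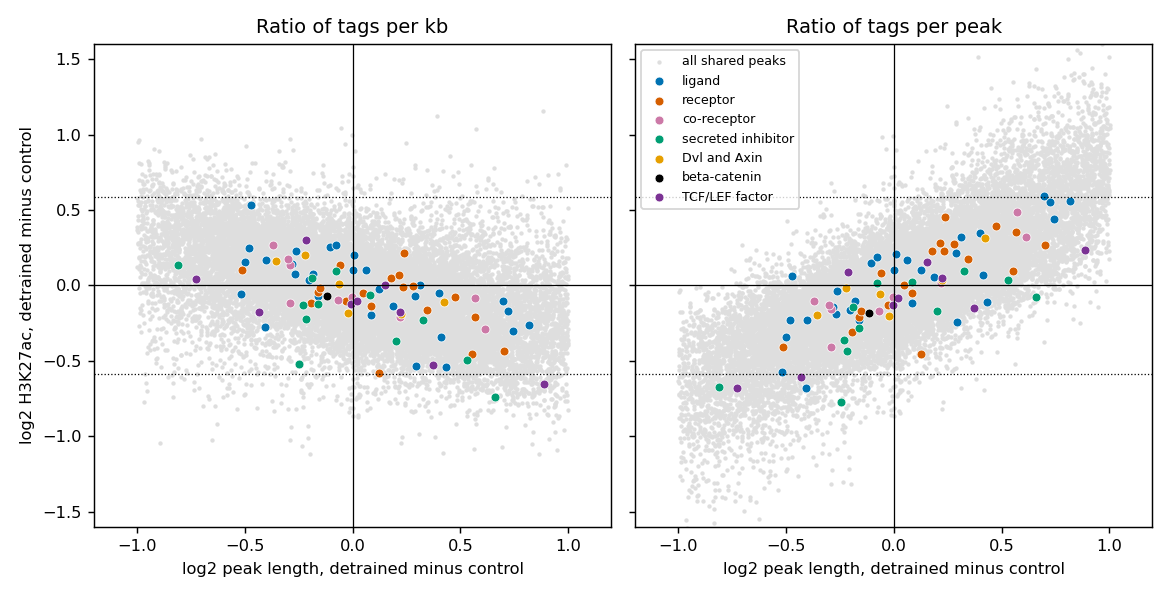
Log2 ratio of H3K27ac (detrained minus control) against the log2 ratio of peak length for shared peaks, as tags per kb (left) and tags per peak (right), with members coloured by role and dotted lines at 1.5-fold. Ratios of density are lower where the length ratio is higher, and 2 members on the left and 5 on the right lie below the lower dotted line without overlap of the libraries.

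By role, the median log2 density ratio of the shared peaks was -0.02 for 31 ligand peaks, -0.05 for 19 receptor peaks, -0.08 for 9 co-receptor peaks, -0.18 for 12 peaks of secreted inhibitors, -0.05 for 6 peaks of Dvl and Axin genes and -0.12 for 9 peaks of TCF/LEF factors, and it was -0.07 for the single Ctnnb1 peak. Among the inhibitor peaks, the detrained libraries were both lower than either control library at 6, above at 1 and overlapping at 5. Among the TCF/LEF peaks these counts were 5, 0 and 4, among the ligand peaks 5, 9 and 17, among the receptor peaks 3, 0 and 16, among the co-receptor peaks 1, 3 and 5, and among the Dvl and Axin peaks 2, 2 and 2. Over all shared peaks 27.2% were below and 21.3% above. In tags per peak, 6 of the 9 ligand peaks above had a negative ratio. So did all 3 co-receptor peaks, the 2 Dvl and Axin peaks and the 1 inhibitor peak above. Of the peaks below, the ratio was positive at 2 of 5 ligand, 2 of 3 receptor and 2 of 5 TCF/LEF peaks. It was also positive at 1 of 2 Dvl and Axin peaks, 1 of 6 inhibitor peaks and the 1 co-receptor peak below. The number of peaks per role is small, and differences between roles were not tested.

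Where peaks split or merged between the lists, overlapping peaks were also joined into regions and their tags summed. There were 105 such member regions among 31776. Of these, 6 were at least 1.5-fold higher without overlap, against 10.3% of all regions, and 9 were lower, against 8.02% of all regions. In the 5 regions that differed most, the listed length differed in the same direction as the tags. At Wnt5a a region over a start site had 66.4 and 50.6 tags per 10000000 in 3101 bp in control and 13.0 and 13.4 in 691 bp in detrained mice. At Tcf7l2 an intronic region had 67.5 and 71.0 tags in 3871 bp in control and 16.3 and 16.1 in 903 bp in detrained mice. At a further Wnt5a region, in the opposite direction to the first, 16.6 and 22.5 tags in 903 bp in control stood against 59.96 and 47.5 in 1489 bp in detrained mice. At Lrp6 an intronic region at 39120 bp from the TSS had 32.9 and 30.9 tags in 764 bp in control and 83.3 and 85.9 in 2824 bp in detrained mice. At Lef1, the single intronic region had 6.13 and 5.62 tags in 500 bp in control and 24.2 and 21.7 in 1027 bp in detrained mice.

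Summed over all peaks of a gene, Tcf7l2 held most H3K27ac, with 1838 and 1949 tags per 10000000 in control and 1683 and 1773 in detrained mice. Fzd7 followed with 1173 and 1480 in control and 1453 and 1289 in detrained mice. Lrp6 (1009 and 1015 against 939 and 895), Wnt11 (1049 and 980 against 915 and 947) and Wnt7b (992 and 951 against 947 and 889) came next. The libraries of Fzd7 overlapped, whereas the detrained sums were below the control sums at Tcf7l2, Lrp6, Wnt11 and Wnt7b, by less than 1.5-fold. Per kb of listed peak the log2 ratio stayed negative at Tcf7l2 (-0.12) and was 0.02 at Lrp6, 0.09 at Wnt11 and 0.06 at Wnt7b, in the other direction. The sums for Ctnnb1 itself were 186 and 211 in control and 185 and 163 in detrained mice.

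The median log2 ratio of the summed tags was -0.12 over the 32 members with peaks in both lists, against -0.05 over all 13524 such genes, and the members' median was -0.16 without C2 and -0.07 without C3. In the higher direction 1 member passed 1.5-fold without overlap, against 7.06% of all genes, and in the lower direction 2 did, against 7.53% of all genes. The higher was Lef1, a TCF/LEF factor, with 6.13 and 5.62 tags in control and 24.2 and 21.7 in detrained mice, and its counts are low. The lower were Sfrp1 (39.9 and 40.7 against 4.63 and 10.9), which had 2 control peaks and 1 detrained peak, none nearer than 96030 bp to its TSS, and Axin1 (122 and 115 against 78.2 and 61.8), which had 3 control peaks and 1 detrained peak. Per kb of listed peak, the log2 ratio of Axin1 was 0.73, in the other direction, and its TSS peak was listed in both groups. These sums count only what was listed, and peaks below the caller's limit add nothing to them.

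**Figure D5:**
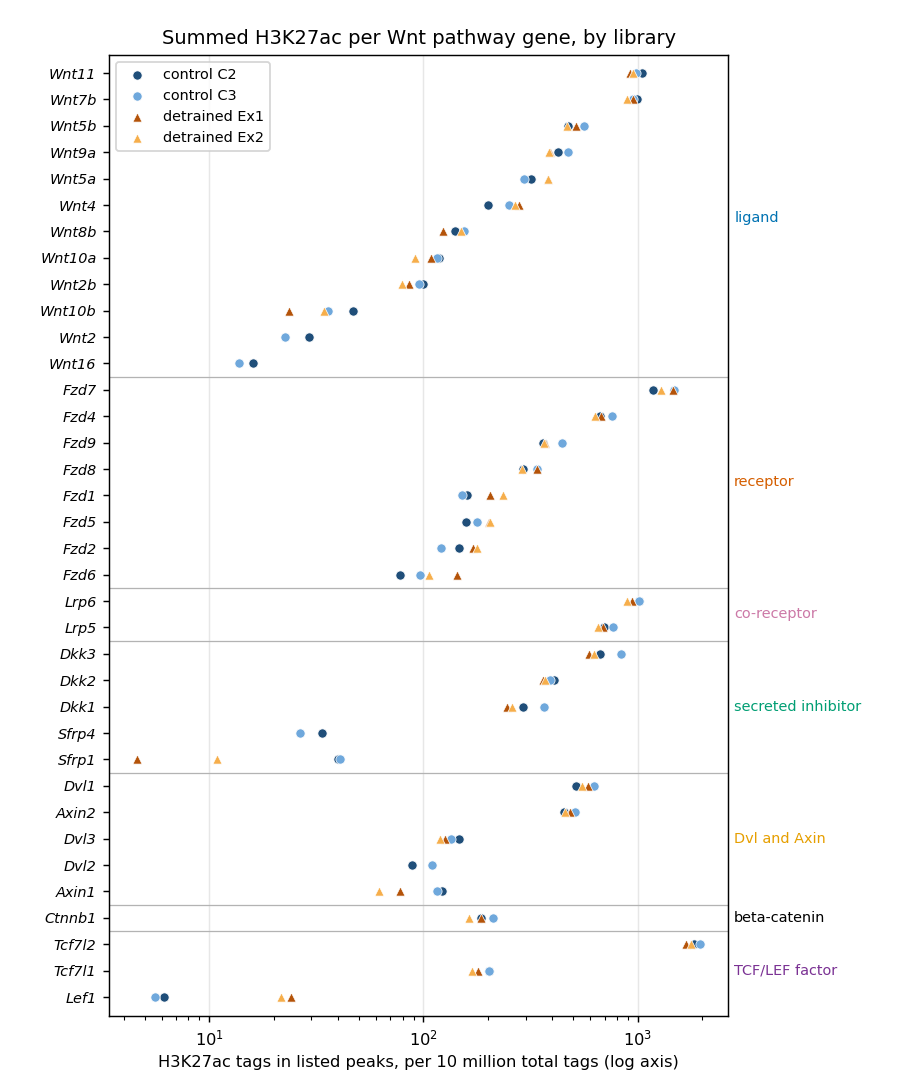
H3K27ac tags per 10000000 total tags summed over the peaks annotated to each member gene (log axis), by library, with circles for control and triangles for detrained mice and genes grouped by role. Most genes have all 4 libraries close together, Lef1, Sfrp1 and Axin1 are the members past 1.5-fold without overlap, and genes with circles alone have no annotated detrained peak.

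Of 56 further genes from the pathway (R-spondins and receptor turnover, ligand secretion, destruction complex, non-canonical signalling, other inhibitors, nuclear partners and target genes), 41 had an annotated peak and 36 had a TSS in a peak of both lists. All 7 destruction complex genes, among them Apc and Gsk3b, and all 10 nuclear partners, among them Bcl9 and Tle3, had TSS peaks in both lists. Of the 12 non-canonical genes 8 did, as did 6 of 9 known target genes, 2 of 3 secretion genes and 1 of 6 other secreted inhibitors (Kremen1). Of the 9 genes of R-spondin signalling and receptor turnover, 2 did (Lgr4 and Znrf3), and the ligands Rspo1, Rspo2, Rspo3 and Rspo4 had no annotated peak. Of 98 shared peaks, 1 was at least 1.5-fold higher without overlap, at Daam1, and 3 were lower, at Znrf3, Frzb and Tle2, with a median log2 ratio of -0.04. Over all shared peaks the shares were 1.10% and 2.06%, so these counts are near the background.

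Of these, the Znrf3 peak stood at 33.8 and 36.1 tags per kb in control and 21.2 and 24.8 in detrained mice, a log2 density ratio of -0.61, and -0.42 in tags per peak. Znrf3 encodes a ubiquitin ligase that removes Frizzled receptors from the cell surface. The Daam1 peak (29.9 and 27.6 against 46.9 and 48.3, log2 density ratio 0.73) had a log2 ratio of 0.04 in tags per peak. The ratios of the Frzb and Tle2 peaks in tags per peak were -0.13 and -0.05, so of the 4 peaks only Znrf3 kept more than a 1.2-fold difference by both measures.

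Markers of the other cells of the muscle were summed over listed peaks alone. The 5 satellite cell markers held 395 and 415 tags per 10000000 in control and 579 and 600 in detrained mice, with 2 and 3 TSSs in peaks and no peak at Calcr. The 6 fibro-adipogenic markers held 2833 and 2783 in control and 3424 and 3450 in detrained mice, and the 6 macrophage and immune markers held 355 and 291 in control and 450 and 394 in detrained mice, with 1 and 4 TSSs in peaks (Csf1r in both lists). In these 3 lists, and in the tenocyte list below, all detrained sums were above the control sums. The macrophage and immune sums include Ptprc, which had 64.1 and 43.6 tags in detrained mice and no listed peak in control. At peaks shared between the lists, however, the median log2 density ratio was -0.08 over 7 satellite cell peaks, 0.15 over 15 fibro-adipogenic peaks and 0.07 over 2 macrophage and immune peaks. The ranges of the 8 myofibre markers (6269 to 7953 in control, 7678 to 8015 in detrained mice) and of the 6 endothelial markers (2289 to 2701 and 2365 to 3006) overlapped, as did those of the Schwann cell markers (124 to 128 and 126 to 158). The smooth muscle markers held 320 and 324 in control and 297 and 289 in detrained mice, the tenocyte markers 504 and 548 and then 556 and 562, and the adipocyte markers 15.1 and 19.7 in control, with no listed peak in detrained mice. Their part in the values of the pathway genes was not tested.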

How the data were processed

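H3K27ac ChIP-seq was analysed in quadriceps of control and detrained mice (2 H3K27ac libraries and 1 input each). Alignment to mm10 was done by the authors with Bowtie, keeping unique alignments. They called broad peaks with HOMER on the pooled libraries of each group against its input, keeping peaks at least 2-fold over input by the authors' DESeq2 step within HOMER. The deposited tables give pooled tag signal per 10000000 total tags, regularized log2 values per library (scaled to total tags separately in each table, and shrunken for weak peaks), and the peak caller's log2 fold and p-value over input, which were used here as a filter alone. Deposited "other" columns are peak length and distance to the TSS.

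Pooled tags were shared between the libraries of a group in proportion to total tags and the antilog of the log2 value, 0.5 tags were added, and density was computed per kb. The values per library are therefore estimates, and the shrinkage can understate the spread between the libraries of a group, most of all at weak peaks. The rule of no overlap may thus be met more easily there. Shared peaks overlapped with at least 50% of each covered and had no other such partner, and a peak was counted as higher or lower at 1.5-fold with no overlap of the libraries. The H3K27ac libraries held 45.5, 49.4, 46.9 and 44.7% of their tags in listed peaks (C2, C3, Ex1 and Ex2), and the weakest member peak rested on 23 pooled tags. The numbers of control columns C2 and C3 are not both numbers of the labels' control samples, so they were assigned to the group alone.

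No test between the groups was made. Described by library were all TSS peaks, the genes with most peaks and members without peaks. So were the 5 shared peaks with the largest increase and decrease, and the 5 strongest peaks without overlap in each list. The densest peak was also given for the roles other than the TCF/LEF factors. The members and lists (Wnt pathway genes, other pathway genes and cell type markers) were chosen with earlier results of these data known. Distances matched RefSeq start sites within 2 bp at 300 of 303 peaks. Calls by tags per peak were tested on simulated data with the same regions in both groups, so the effect of peak length was not tested. A further sequence with a match is not reported here. Computation used matplotlib 3.10.9, scipy 1.17.1, pandas 2.3.3 and numpy 2.4.6 under Python 3.11.15. The alternatives tried were stricter peaks, other overlaps, folds and totals, tags per peak, merged regions and leaving out each library.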

Additional observations from a re-analysis of the deposited data

How the results depend on the processing

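A stricter limit (4-fold over input and an adjusted p under 0.001 by the peak caller) left 76 control and 81 detrained member peaks, and 89.5% of these control peaks and 80.2% of these detrained peaks had a partner in the other list. Where each peak had to be 50% covered and to have a single partner, the overlapping shares were 54.0% in control and 61.3% in detrained mice. Shares of all shared peaks, or of all merged regions, at the same setting are given in brackets. The count of shared member peaks past 1.5-fold in the lower direction was 2 (2.06%). It was 5 by tags per peak (5.08%), 0 with 80% of each peak covered (0.645%) and 1 with at least 30 pooled tags (1.85%). It was 0 at 2-fold (0.0605%), 13 at 1.2-fold (15.8%) and 9 over merged regions (8.02%). With 1 library left out it was 0 without C3 (2.21%), 7 without C2 (4.08%), 5 without Ex1 (3.16%) and 5 without Ex2 (2.64%). The count in the higher direction, 0 (1.10%), was 4 with any overlap of single partners (1.84%), 3 at 1.2-fold (11.5%) and 1 per total tags in listed peaks (1.69%). It was 6 over merged regions (10.3%), and 0 to 1 when 1 library was left out (1.31% to 2.44%). These counts therefore depend on the settings. The median log2 ratio of the summed tags per member gene, -0.12, was -0.00072 by mean density. Among the 10 shared peaks with the largest increases and decreases, by tags per peak, the log2 ratio of the Lrp5 TSS peak turned to -0.10 and that of the Tcf7l2 intron peak to 0.24, because length no longer divides the tags, and ratios of other TSS peaks turned too. For the other pathway genes, the 4 shared peaks past 1.5-fold in either direction were 8 with any overlap of single partners. They were 1 with 80% covered and 10 by tags per peak. Over all shared peaks these settings gave 1.84% higher and 2.84% lower, 0.263% and 0.645%, and 5.51% and 5.08%. With 1 library left out the count was up to 10 (without C2, 1.61% and 4.08%) or 9 (without Ex2, 2.30% and 2.64%). Merged regions and the alternatives for the other pathway genes were chosen after seeing the data. The cause of the other differences was not tested here or by any setting. No paired analysis was possible because the methods describe no pairs and column numbers C2 and C3 could not both be matched to the labels. Each H3K27ac library came from a different mouse, and the mice were assigned at random to cages with or without wheels. No test was made.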
